A study of Mus musculus with 2 samples.

Results

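The sinusoidal endothelial genes described here are 9 of the 500 genes imaged in mouse liver: Kdr, Tek, Cdh5, Lyve1, Mrc1, Oit3, Clec14a, Mmrn2 and Ushbp1. They were taken by name as a list of endothelial markers, and all 9 were on the panel. The assay was MERFISH, an imaging method in which repeated rounds of fluorescence identify single transcripts in place, run on 2 frozen liver sections of 10 µm that the labels put in 1 group as replicates 1 and 2. No strain, age, genotype or agent is labelled, it is not stated that 2 animals were used, and a tag reading 2d was not interpreted. The series' design text speaks of mice with liver metastases given TA33 or TA33.Combo for a period before the liver was taken, but the labels link neither agent to these samples, and neither was assumed. All comparisons were therefore between cells or places within the sections, and p-values measure only the spread between these sections, which may be technical.

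Liver sinusoids are the capillaries of the lobule, lined by thin endothelial cells with open pores and a high capacity to take up material from blood. Kdr encodes the main signalling receptor for VEGF, and Tek the receptor for angiopoietins, both central to vessel growth and upkeep. Cdh5 encodes VE-cadherin, the adhesion molecule of endothelial junctions. Lyve1 encodes a hyaluronan receptor and Mrc1 the mannose receptor, an endocytic receptor that macrophages also use. Clec14a encodes an endothelial membrane lectin-like protein and Mmrn2 a matrix protein that binds it. Oit3 is known as a gene of liver sinusoidal endothelium, and Ushbp1 encodes a protein named for binding harmonin. Blood runs through the lobule from portal to central veins, and Glul, which encodes glutamine synthetase, is known to be made by the hepatocytes next to central veins.

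Promoter sequences, 250 bases before to 50 after a start site, were available from RefSeq (build GRCm38.p6) for 5 of the 9 genes: Kdr, Tek, Mrc1, Clec14a and Ushbp1. For Kdr, Tek and Ushbp1 that site is not the first base of the gene as annotated in this build. They were searched because the genes were detected together in cells, as described below. The motifs were CAGGAAG or CCGGAAG for ETS factors and AGATAA for GATA factors, families known for roles in endothelial gene control, on both strands. Neither motif contains the other. Of 32851 promoters of this length 20.9% held an ETS motif and 11.2% the GATA motif. Among the 5 genes, 2 (Ushbp1 and Mrc1) held an ETS motif and 1 (Tek) the GATA motif. The 3 sequences with a match are shown 5′ to 3′ on the strand of the gene, with the match in capitals. The match begins 64 bases before the start in Ushbp1 (chr8:71395752-71396051, minus strand) and 210 bases before it in Mrc1 (chr2:14229164-14229463, plus strand). In Tek (chr4:94739039-94739338, plus strand) it begins at base 37 of a transcript counted from that start site.
Ushbp1: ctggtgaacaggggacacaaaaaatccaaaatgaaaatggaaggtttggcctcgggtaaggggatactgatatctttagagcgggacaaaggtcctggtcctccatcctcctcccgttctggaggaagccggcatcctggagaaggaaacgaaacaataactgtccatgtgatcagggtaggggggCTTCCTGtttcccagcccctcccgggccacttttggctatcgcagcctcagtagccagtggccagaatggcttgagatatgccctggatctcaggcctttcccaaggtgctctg
Mrc1: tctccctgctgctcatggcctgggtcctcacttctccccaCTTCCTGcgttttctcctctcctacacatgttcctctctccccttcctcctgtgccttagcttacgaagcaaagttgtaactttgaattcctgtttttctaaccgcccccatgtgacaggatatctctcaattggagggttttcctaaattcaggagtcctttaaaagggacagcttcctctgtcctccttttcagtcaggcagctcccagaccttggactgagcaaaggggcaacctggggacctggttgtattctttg
Tek: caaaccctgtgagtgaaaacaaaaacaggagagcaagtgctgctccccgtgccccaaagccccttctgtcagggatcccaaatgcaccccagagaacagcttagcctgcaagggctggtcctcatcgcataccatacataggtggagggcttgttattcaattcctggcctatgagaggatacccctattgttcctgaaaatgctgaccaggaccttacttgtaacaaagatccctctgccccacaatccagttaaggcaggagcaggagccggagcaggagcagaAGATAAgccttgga

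The authors' segmentation gave 26037 cells in section 1, holding 428386 counts over the genes, and 85929 cells in section 2, holding 475382. Counts per cell were few, with a median of 4 in section 1 and 3 in section 2. The 9209 and 16290 cells with at least 10 counts are called covered cells below, and their medians were 27 and 15. Blank barcodes, which name no gene, held a mean of 78.7 and 37.2 counts in cells, and the highest blank held 423 and 923. Levels are given as counts per 10000 gene counts in cells, a scale that does not correct for how well each gene's probes work, so the order of genes is an order of detection.

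Ushbp1 was the most detected of the 9 genes and Mmrn2 the least, and all 9 were higher per 10000 counts in section 1 than in section 2. Ushbp1 stood at 64.9 in section 1 and 36.3 in section 2 (50.6 ± 20.2, SD, n = 2), and ranked 26th and 39th of the 500 genes. Oit3 stood at 28.5 and 14.96, Cdh5 at 18.1 and 12.0, and the VEGF receptor gene Kdr at 16.3 and 7.07. The hyaluronan receptor gene Lyve1 stood at 8.22 and 4.27. These genes were thus seen in both sections, with the same gene leading in each. Mrc1 differed most between sections, with 10.3 and 3.45, a ratio of 3.00. Clec14a differed least, with 8.96 and 6.75, a ratio of 1.33. The angiopoietin receptor gene Tek stood at 5.70 and 2.97 and Mmrn2 at 2.40 and 1.62. In the order of their means the genes ran Ushbp1, Oit3, Cdh5, Kdr, Clec14a, Mrc1, Lyve1, Tek and Mmrn2. Ushbp1 and Oit3, and Tek and Mmrn2, differed by more than the SD of either gene, and the other neighbours by less than the larger of their SDs.

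Summed, the 9 genes held 6996 counts in section 1 and 4251 in section 2, or 163 and 89.4 per 10000. In section 1 Tek, Lyve1, Clec14a and Mmrn2 held fewer counts than the highest blank, and in section 2 all but Ushbp1 did. The blanks above the 4 genes in section 1 numbered 5, 3, 3 and 12 of 50. In section 2 the highest blank was the only one above these genes, except for Mmrn2, which had 3 above it. All 9 were above the mean blank in both sections, Mmrn2 least with 1.31 and 2.07 times its counts. At least 1 count of any of the 9 genes was found in 21.8% of covered cells in section 1 (95% exact binomial interval 21.0 to 22.7%) and in 10.3% in section 2 (9.80 to 10.7%). After thinning each cell to 10 counts the expected shares were 10.7% and 6.73%. Ushbp1 alone was found in 10.3% and 4.46% of covered cells (5.26% and 2.82% after thinning), Oit3 in 7.01% and 2.41% and Tek in 2.14% and 0.510%. Intervals cover counting error only. In a section like this, fewer cells of a type and less RNA per cell cannot be told apart.

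**Figure D1:**
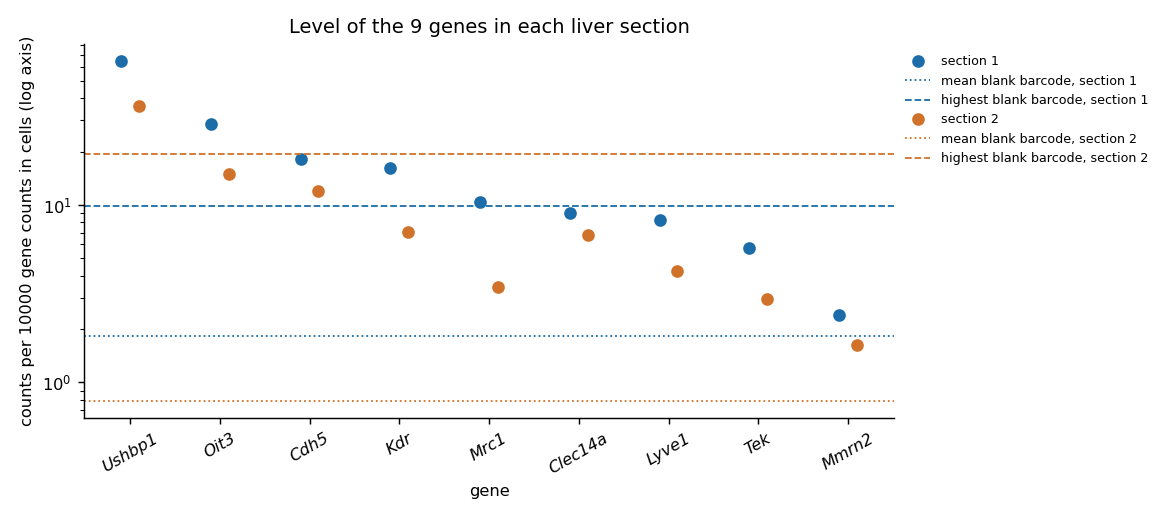
Level of each gene in counts per 10000 gene counts in cells (log axis), one point per section, with the mean (dotted) and the highest (dashed) blank barcode of each section as lines. Ushbp1 leads at 64.9 and 36.3, and in section 2 the other 8 genes lie under the highest blank, the only blank above them except for Mmrn2.

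The 9 genes were found together in cells, but most covered cells with any of them held only 1 of the 9. These were 1313 of 2010 such cells in section 1 and 1362 of 1672 in section 2. Over the 36 pairs, the odds of detecting one gene were higher in cells that held the other, with cells compared within 3 classes of their remaining counts (10 to 19, 20 to 49, and 50 or more). In section 1 all 36 odds ratios were above 1, with a lowest value of 6.63 (Kdr with Cdh5), a median of 10.9 and a highest of 17.2 (Lyve1 with Oit3). In section 2, 35 pairs had a value and all 35 were above 1, from 2.08 (Tek with Lyve1, on 1 shared cell) to 12.0 (Lyve1 with Mrc1, on 6 shared cells), with a median of 5.51. Other pairs in section 2 also rested on few shared cells, such as 1 for Tek with Mrc1 and 3 for Kdr with Tek. Tek and Mmrn2 shared no cell there, and in section 1 they shared 21. These ratios are descriptions of cells that share a section, with no test.

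Pairs with other targets gave lower values. The highest blank barcode with each of the 9 genes gave a median odds ratio of 1.10 in section 1 and 0.931 in section 2, but 6.15 with Mmrn2 in section 2, on 4 shared cells. Hp, the haptoglobin gene of hepatocytes, gave medians of 0.865 and 0.780. Glul gave 1.66 and 1.24. Clec4f, a Kupffer cell marker, gave medians of 1.38 and 1.10, but 3.32 and 1.79 with Mrc1 and 2.20 and 4.64 with Cdh5.

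**Figure D2:**
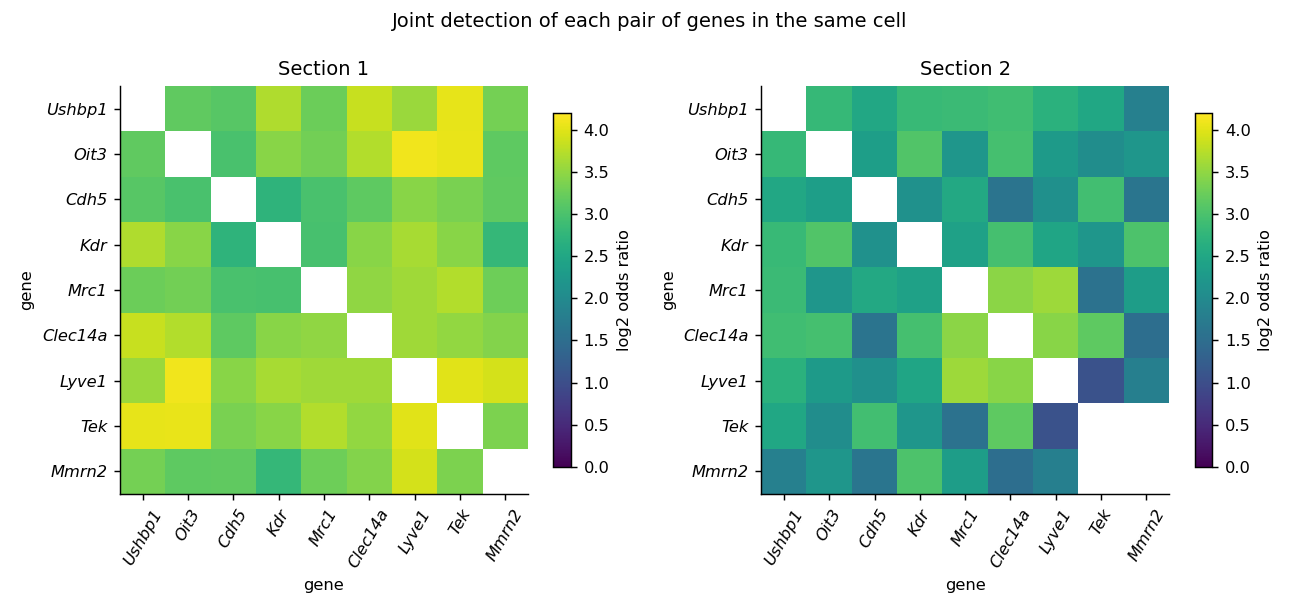
Log2 odds ratio of detecting 2 of the 9 genes in the same cell, for each pair, in section 1 and section 2. White squares are the gene with itself and, in section 2, Tek with Mmrn2, which shared no cell; every other pair is above 0, with medians that correspond to odds ratios of 10.9 and 5.51.

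Cells with at least 1 count of a gene were next compared with cells without it, over cells with at least 10 other counts, in 9 fits of summed counts (edgeR quasi-likelihood test with section as a block, Benjamini-Hochberg adjustment over all genes tested, threshold 0.05). Of the 72 ordered pairs of genes, 44 were called higher and none lower by this test, and 71 had an unadjusted p under 0.05. The log2 change was positive in 72 of 72, from 1.83 to 3.43 with a median of 2.60, and positive in both sections in 70. Its median was 3.10 in section 1 and 1.74 in section 2. The 2 exceptions were Tek with Mmrn2 in both directions, which had 0 counts of the partner in section 2.

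In cells with Kdr, all 8 other genes were called higher, where 5.44% of all 423 genes tested were and 0% were lower. Lyve1 there stood at 55.3 per 10000 against 4.47 without Kdr in section 1 and at 22.2 against 4.15 in section 2 (log2 change 3.06, SE 0.55, edgeR adjusted p = 5.5e-06). In cells with Tek none of the 8 was called, where 0% of 423 genes were, although 7 of the 8 had an unadjusted p under 0.05 and DESeq2 called 7. Tek was found with Oit3 at 209 against 21.8 per 10000 in section 1 and 53.4 against 13.8 in section 2 (log2 change 2.42, SE 0.81, edgeR adjusted p = 0.25). The levels were thus higher in cells with Tek in both sections, and that fit rested on 196 and 71 such cells.

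In cells with the junction gene Cdh5 all 8 were called higher, against 6.84% of 424 genes (6.37% were lower). Cells with Lyve1 gave no call among the 8, against 0.236% of 424 genes, with the lowest edgeR adjusted p = 0.051 for Clec14a (log2 change 2.91, SE 0.79), and DESeq2 called 7. Lyve1 and Clec14a were nevertheless called in the other direction, in cells with Clec14a, where Lyve1 had the largest change of the genes called higher in both sections (log2 change 3.43, SE 0.59, edgeR adjusted p = 4.0e-06). All 8 were higher in cells with Clec14a, against 3.07% of genes (0.472% were lower). Cells with Mrc1 gave 3 calls, against 1.65% of genes (0.236% were lower): Lyve1 (3.19, SE 0.81), Clec14a (2.89, SE 0.78) and Mmrn2 (2.80, SE 0.59).

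In cells with Oit3 all 8 were higher, against 7.55% of 424 genes (8.02% were lower). Mrc1 stood at 51.6 per 10000 with Oit3 and 5.55 without it in section 1, and at 10.1 and 2.72 in section 2 (log2 change 2.77, SE 0.29, edgeR adjusted p = 6.9e-18). Cells with Ushbp1 also gave 8 of 8, against 7.78% of genes (0.708% were lower). Cells with Mmrn2, 84 in section 1 and 37 in section 2, gave 1 call, Oit3 (log2 change 2.42, SE 0.59, edgeR adjusted p = 0.010), against 0.708% of genes. The count of 44 rested on settings: 20 pairs were called when at least 2 counts of the first gene were asked for, 5 without the section block, all of them in cells with Clec14a, and 71 without TMM scaling.

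The gene most often found beside these 9 was Pcdh12, which encodes an endothelial protocadherin. It was called higher in 8 of the 9 fits, the exception being cells with Tek, and led the called genes in 7 of them. In cells with Oit3, Pcdh12 stood at 14.0 per 10000 against 0.994 without Oit3 in section 1 and at 14.6 against 0.895 in section 2 (log2 change 3.81, SE 0.31, edgeR adjusted p = 2.6e-27). F8, the gene of coagulation factor VIII, was called in 7 fits, with a median log2 change of 3.01 over the 9. In cells with Mrc1, Clec14a and Mmrn2 its change in section 2 was negative (-2.18, -2.20 and -2.20). It had 0 counts beside Mrc1 and beside Mmrn2 in that section. Bmp2, a growth factor gene of the sinusoid that induces hepatocyte hepcidin, C1qtnf1 and the endothelial Notch receptor gene Notch4 were called in 5 each, with medians of 2.44, 2.22 and 2.05. In all, 38 genes other than the 9 were called higher in at least 1 fit.

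Genes of other lists were few on the panel, since only Angpt1 of 18 genes of the VEGF and angiopoietin pathway beside Kdr and Tek was measured, and it was called in none of the 9 fits. Of 3 genes known from central endothelium, Wnt2, Kit and Selp, all 3 were higher in cells with Oit3 and in cells with Ushbp1, Kit and Selp in cells with Kdr, and Selp and Wnt2 in cells with Cdh5. Of 2 genes known from portal endothelium, Jag1 and Ly6a, both were called higher in cells with Ushbp1 and neither was called in the other 8 fits. In cells with Ushbp1, Jag1 had 1.43 in section 1 but -0.09 in section 2. Over the 9 fits the log2 change was positive for both, from 0.26 to 1.23 for Jag1 and from 0.43 to 2.70 for Ly6a.

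Macrophage markers moved with part of the genes. In cells with Cdh5, Clec4f (log2 change 1.42, SE 0.31), Adgre1 (1.28, SE 0.42) and Csf1r (1.24, SE 0.21) were called higher and Itgam lower (-1.27, SE 0.46), so 3 of 5 measured markers rose. In cells with Mrc1 the same 3 had larger estimates, 1.54 (SE 0.74), 1.95 (SE 0.75) and 1.63 (SE 0.83), and did not pass the test (edgeR adjusted p from 0.22 to 0.37). Named here after their values were seen, 2 genes outside that list were called higher in cells with Mrc1. Spic, a transcription factor gene of iron-recycling macrophages in mouse, had a log2 change of 2.19 (SE 0.52, edgeR adjusted p = 0.0034), higher in both sections but on 19 counts in section 1 and 1 count in section 2. Spic was also called higher in cells with Kdr (log2 change 1.68, SE 0.54, edgeR adjusted p = 0.038), so its call was not particular to Mrc1. Cx3cr1, the fractalkine receptor gene of monocytes and macrophages, had 2.07 (SE 0.60, edgeR adjusted p = 0.034), with 0 counts beside Mrc1 in section 2. With Tek, Clec4f had a log2 change of -1.54 (SE 1.20), which did not pass either. When all cells with a count of any of the 5 markers were left out, 60 of the 72 pairs of the 9 genes were called higher. The part of macrophages in the levels of single genes was not tested.

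Cells that held several of the 9 genes at once were more frequent in section 1. Their share rises with depth, and covered cells had a median of 27 counts in section 1 and 15 in section 2. The part of depth in this difference was not tested. Among covered cells 697 (7.57%) held at least 2 different genes of the 9 in section 1 and 310 (1.90%) in section 2. At least 3 were held by 394 and 80 cells, at least 6 by 95 cells and 1 cell, and all 9 by 2 cells and 0 cells. A section 1 cell held up to 51 counts of the 9 genes, and a section 2 cell up to 10. Cells with at least 3 lay in 262 of 1648 squares of 100 µm in section 1 and in 67 of 2803 in section 2. Most of them, 359 of 394 and 73 of 80, lay in squares with 5 or more covered cells, which were 677 and 885 squares.

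**Figure D3:**
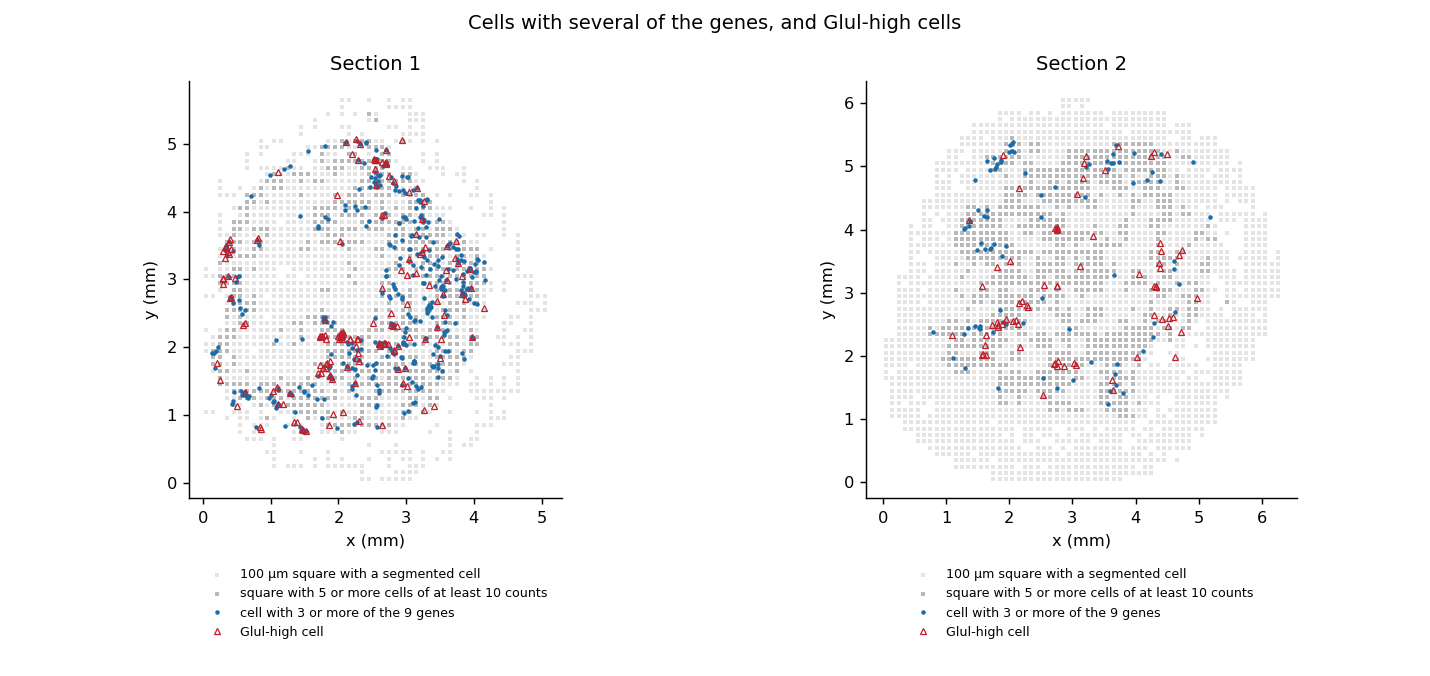
Position of all cells that hold 3 or more of the 9 genes (blue points) and of Glul-high cells (red triangles) in both sections (x and y in mm), over squares of 100 µm that hold a segmented cell (light grey) or at least 5 covered cells (dark grey). Blue points cover much of the right side of section 1, and section 2 has fewer of them, in small groups.

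Cells with at least 3 of the genes were compared with cells that held none, on all other genes and with at least 10 counts of those (390 and 68 cells against 7199 and 14618). Of 402 genes tested 17 were called higher (4.23%) and 1 lower (0.249%). Pcdh12 led (log2 change 5.75, SE 0.79, edgeR adjusted p = 8.3e-10), followed by F8 (4.66, SE 0.68) and Bmp2 (3.92, SE 0.80). The adhesion gene Selp (3.19, SE 0.64), the stem cell factor receptor gene Kit (2.53, SE 0.78), Wnt2, Jag1 and Vwf were also higher. Rgs1, a regulator of G protein signalling, was lower (log2 change -3.03, SE 0.87). The count was 9 by DESeq2, 7 without the section block and 66 without TMM scaling.

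These cells also differed in size and in other markers. Their median volume was 1562 cubic µm in section 1 and 1502 in section 2, against 1093 and 1251 in cells with none, and their median count of other genes was 55.5 and 17.5 against 25 and 15. The 10 measured hepatocyte genes still took 2305 and 3131 per 10000 of their other counts, against 2692 and 4330. The 5 macrophage markers took 103 and 80.9 against 62.1 and 50.1, and no macrophage marker passed the test. The part of neighbouring cells inside one outline in these results was not tested. Asking for at least 3 detected genes, against none, can itself favour deeper and larger outlines. The part of that choice in the volumes and counts was not tested either.

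The place of the 9 genes was measured against Glul-high cells, those with at least 3 Glul counts, 162 in section 1 and 73 in section 2. As a check, Cyp2e1, a drug-metabolising enzyme of the pericentral zone, stood at 39.5 per 10000 within 50 µm of them and 30.0 at 100 to 200 µm in section 1, and at 61.7 and 34.0 in section 2 (log2 change 0.65, SE 0.14, edgeR adjusted p = 0.016). Of 11 pericentral genes tested 2, Cyp2e1 and Gulo, were called higher near Glul-high cells, and of 7 periportal genes none was called lower. The landmarks themselves differed between sections. In section 1, 53 of the 162 Glul-high cells (32.7%) held at least 2 of the 9 genes, against 7.12% of other covered cells, and in section 2 it was 2 of 73 (2.74%) against 1.90%. Such shares rise with depth, and Glul-high cells had a median of 77.5 counts against 8 in other cells in section 1 and 20 against 5 in section 2. Per 10000 counts the 9 genes summed to 253 in Glul-high cells (450 counts) against 159 in other cells in section 1. In section 2 they summed to 55.5 (11 counts) against 89.6. The 11 counts are too few to set a direction in section 2, and neither difference was tested.

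Cells other than the Glul-high ones were summed within 50 µm (1911 and 2838 cells), at 50 to 100 µm and at 100 to 200 µm (6120 and 13931 cells), and none of the 9 genes was called different between the near and the far sum. The edgeR test called 6 of 396 genes (1.52%), 5 higher and 1 lower near Glul-high cells, and none of the 9 had an unadjusted p under 0.05. DESeq2 called 0 of the 9 as well. The median log2 change of the 9 genes was 0.25, against -0.06 over all genes tested. Summed, they stood at 169 per 10000 near, 185 in the middle and 154 far in section 1, and at 100.1, 91.3 and 94.96 in section 2.

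Cells beyond 200 µm, 8272 in section 1 and 40470 in section 2, were left out of the test. There the 9 genes summed to 140.4 and 85.9 per 10000. In section 1 Oit3 stood at 17.7, Lyve1 at 3.65 and Mrc1 at 6.52 in these cells, lower than in the near and the far bin, and Ushbp1 at 70.2, higher than in both. In section 2 Oit3 stood at 13.5 there, also lower than in both bins, and Lyve1 at 4.26, Mrc1 at 3.57 and Ushbp1 at 35.3 lay between their near and far levels. These differences were not tested, and cells beyond 200 µm held fewer counts, 13.9 and 6.79 per cell.

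Kdr stood at 17.8 per 10000 near and 14.99 far in section 1 and at 7.80 and 7.37 in section 2 (log2 change 0.22, SE 0.20). Tek went in opposite directions, with 6.86 near and 4.97 far in section 1 and 2.60 and 3.32 in section 2 (0.25, SE 0.32). The Poisson intervals of near and far overlapped for both receptors in both sections. Cdh5 stood at 20.7 and 17.3 in section 1 and 13.3 and 11.1 in section 2 (0.32, SE 0.19). Oit3 stood at 31.4 and 28.0 in section 1 and 21.1 and 16.4 in section 2 (0.27, SE 0.17). Kdr, Cdh5, Oit3, Clec14a and Mmrn2 were thus higher near than far in both sections, without passing the test.

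The estimates of the scavenger receptor genes Lyve1 and Mrc1 moved with the setting, to 0.93 and 0.51 with cells split into 3 equal groups by distance and to 0.67 and 0.37 with at least 2 Glul counts, and passed the test under none of the alternatives that gave a test. Lyve1 stood at 8.23 near and 9.37 far in section 1 and at 5.199 and 4.13 in section 2 (log2 change -0.00, SE 0.24). Mrc1 stood at 10.82 and 11.02 in section 1 and at 3.25 and 3.68 in section 2 (-0.03, SE 0.25). Ushbp1, with the most counts of the 9, stood at 60.2 and 58.4 in section 1 and at 35.1 and 39.4 in section 2 (-0.02, SE 0.14). Mmrn2 had the largest estimate and the fewest counts, 27 near in section 1 and 5 in section 2 (0.72, SE 0.34, edgeR adjusted p = 0.36). With Glul-high cells set at 2 or more Glul counts, 1 of the 9 was called, Oit3, higher near them (log2 change 0.87, edgeR adjusted p = 0.010), and with 5 or more its estimate was -0.021.

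**Figure D4:**
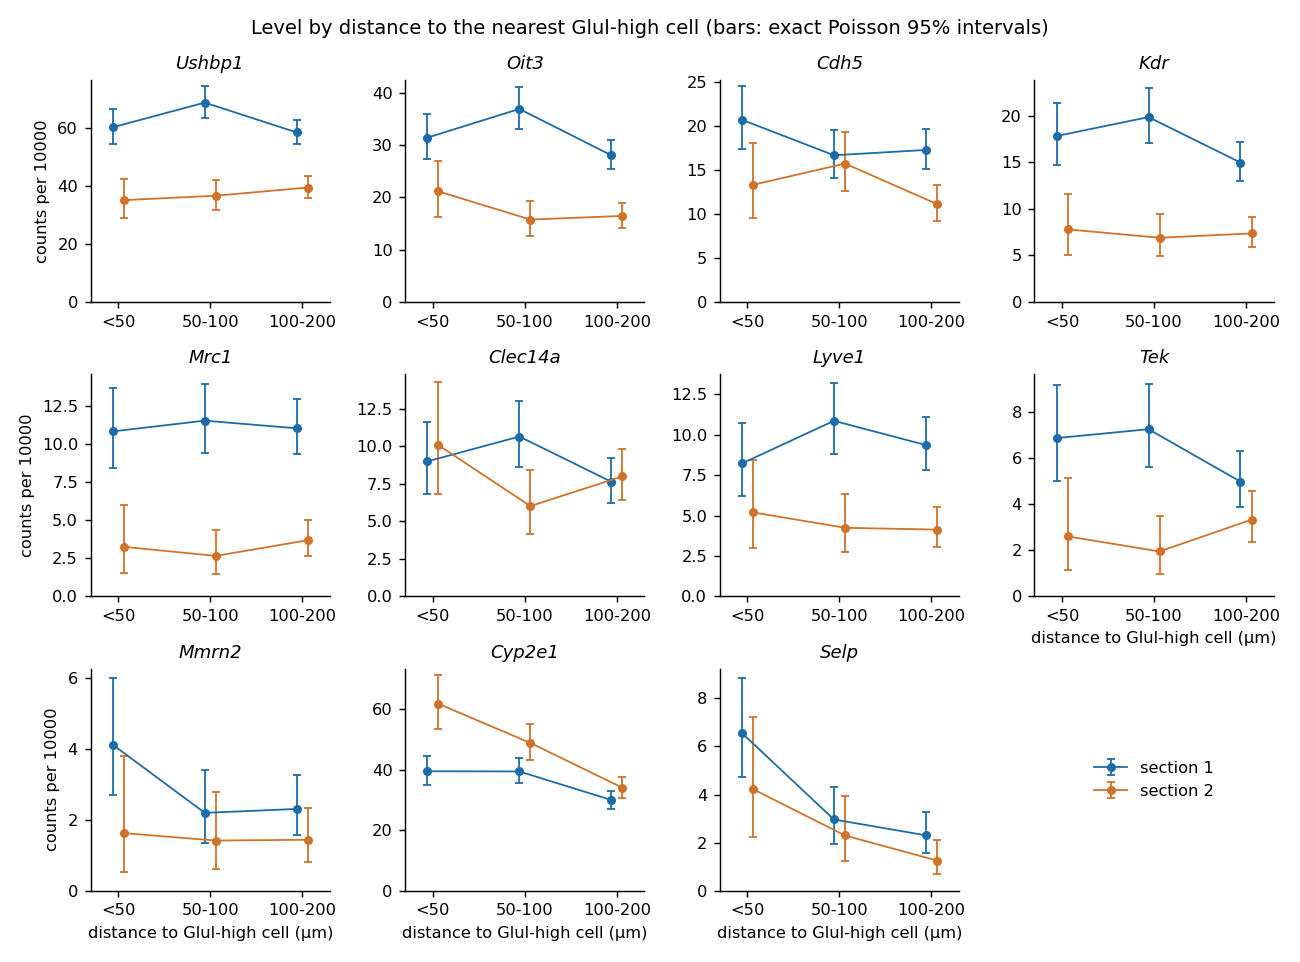
Counts per 10000 gene counts within 50 µm, at 50 to 100 µm and at 100 to 200 µm of the nearest Glul-high cell for the 9 genes and, for comparison, Cyp2e1 and Selp, in section 1 (blue) and section 2 (orange), with exact Poisson 95% intervals. Cyp2e1 and Selp are higher near than far in both sections, and none of the 9 genes passed the test.

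Another endothelial gene did pass. Selp, which encodes P-selectin, stood at 6.55 per 10000 near and 2.31 far in section 1 and at 4.22 and 1.26 in section 2 (log2 change 1.63, SE 0.31, edgeR adjusted p = 0.0059), on 43 and 13 counts near. The other genes of the fixed lists that were called were Col1a1 (1.29, SE 0.14) and Col3a1 (1.18, SE 0.17), collagen genes of mesenchymal cells, higher near Glul-high cells, and the erythroid factor gene Klf1, lower (-0.88, SE 0.16). Wnt2 had a log2 change of 0.06 (SE 0.35) and Kit of -0.07 (SE 0.29). The difference between Selp and the 9 genes was not tested. A comparison within cells chosen by other endothelial genes could not be made as planned, because only Vwf and Procr of 27 such genes were measured and the smallest bin held 0 cells. With 9 other endothelial genes chosen after the panel was seen, 8 of the 9 genes could be tested and none was called. By edgeR 0 of 145 genes were called, and 8 had an unadjusted p under 0.05, none of them one of the 9 genes. The log2 changes of the 8 genes tested ran from -0.78 to 0.10, with a median of -0.39 against -0.12 over the 145 genes. The median in all cells was 0.25. In section 1 the 8 ran from -0.51 (Lyve1) to 0.47 (Clec14a). In section 2 all 8 were negative, from -3.94 (Clec14a) to -0.55 (Kdr and Lyve1). Kdr and Lyve1 shared the same value there, as did Mrc1 and Tek (-2.54), which happens where counts are very few. The size of such changes then depends on the prior count, so the section 2 values are uncertain.

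Over squares of 100 µm with at least 100 counts (866 in section 1 and 1132 in section 2), each of the 9 genes was compared with the sum of the others. Ranked among 353 genes by the mean Spearman's rho of both sections, Kdr, Oit3 and Ushbp1 came first with 0.29, 0.28 and 0.28, and Mmrn2 lowest of the 9 at rank 26 with 0.11. For Kdr rho was 0.41 in section 1 and 0.17 in section 2. The 5 genes outside the list with the most similar pattern were Notch4 (0.24), Fcgrt (0.21), Bmp2 (0.19), Notch1 (0.19) and C1qtnf1 (0.19), against a median of 0.01 over genes. Squares share a section and its depth, so these values are a description.

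Transcripts of the 9 genes lay inside segmented cells more often than those of the whole panel. Macrophage, erythroid, monocyte and neutrophil, and B lineage genes leaned the same way, as given below. Of 10150 decoded transcripts of the 9 genes in section 1, 31.1% lay outside cells (95% exact binomial interval 30.2 to 32.0%), against 40.1% for all genes, and of 5628 in section 2 24.5% did (23.3 to 25.6%), against 34.4%. Blank barcodes lay outside in 57.5% and 48.5%. In section 2 a single barcode, Blank-29, held 2140 of the 3618 blank transcripts, with 56.9% outside. The other blanks with at least 100 transcripts there had 33.9% to 40.8% outside, near the 34.4% of all genes. The share of all genes is weighted by abundant genes, and the median over genes with at least 100 transcripts was 38.6% in section 1 (402 genes) and 31.5% in section 2 (331 genes). All 9 genes lay below that median in section 1. In section 2, 7 of the 9 did, and Mrc1 and Mmrn2 lay above it, with 219 and 239 of the 331 genes at lower shares.

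Mrc1 had the lowest share outside in section 1, 18.6% of 544 transcripts, but 33.9% of 248 in section 2. Tek had 21.5% and 28.4%, and Lyve1 24.6% and 27.5%. Ushbp1 had the lowest share in section 2, 21.2% of 2191, and 32.7% of 4129 in section 1. The VEGF receptor gene Kdr had 34.9% and 27.7%, Cdh5 34.7% and 25.4%, and Oit3 30.8% and 25%. Clec14a had 28.2% and 22.8%, and Mmrn2 29.9% and 34.7%. The order of the genes thus differed between sections.

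**Figure D5:**
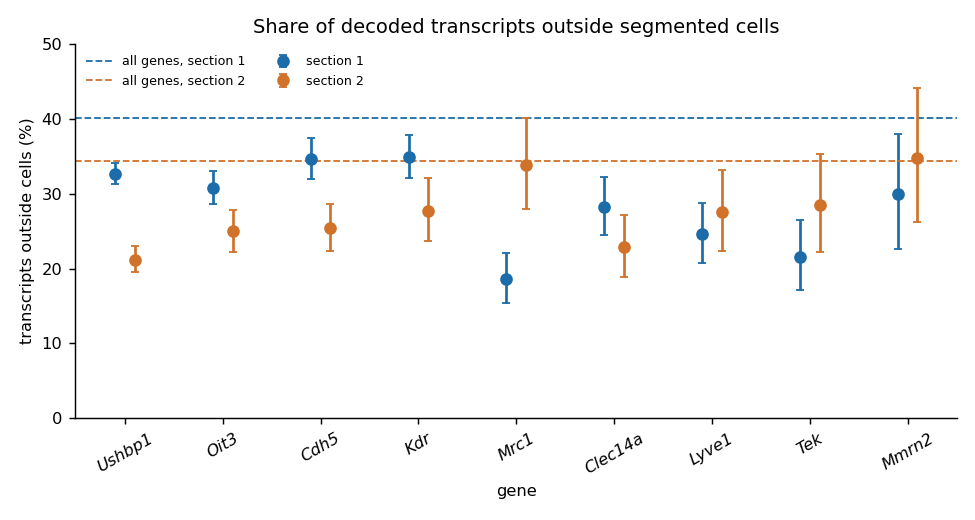
Percent of decoded transcripts outside segmented cells for each gene in section 1 (blue) and section 2 (orange), with exact binomial 95% intervals and the share of all genes in each section (dashed lines). All points of section 1 lie under the 40.1% of all genes, and in section 2 only Mmrn2, at 34.7%, lies above the 34.4% of all genes.

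None of these differences passed the test across all genes. With outside compared with inside over both sections, edgeR called 0 of 484 genes (0%), 86 had an unadjusted p under 0.05, and 3 of the 9 genes were among those 86. The log2 changes of the 9 genes ran from -0.75 to -0.21 with a median of -0.60, against 0.06 over all genes. Such medians were not particular to these genes. Macrophage genes had a median of -0.65, erythroid genes -0.69, monocyte and neutrophil genes -0.76 and B lineage genes -0.67. The medians of the remaining fixed lists ran from -0.22 (endocytic and scavenger) to 0.60 (megakaryocyte and platelet), with hepatocyte genes at 0.28. Ushbp1 had -0.43 in section 1 and -0.78 in section 2 (-0.60, SE 0.16, edgeR adjusted p = 0.27), and Clec14a -0.72 and -0.64 (-0.69, SE 0.20, edgeR adjusted p = 0.27). Oit3 had -0.55 and -0.47 (-0.51, SE 0.18, edgeR adjusted p = 0.27). Mrc1 had -1.50 and 0.15, and Mmrn2 -0.59 and 0.20, so that these 2 genes changed sign between sections. DESeq2 called none of the 9.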

How the data were processed

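Transcripts of 500 genes and 50 blank barcodes were measured in 2 mouse liver sections of 1 group. The authors deposited counts of each gene for each cell, not normalized, and other values per the file headers: cell volume and centre, and the position and cell of each decoded transcript. Their deposited image signal for DAPI and poly(T) is not reported here. Decoding and segmentation software is not given in the sources used here, and µm was assumed as the unit of length. The genes, lists and tests were chosen with earlier results of these data known. Genes named are the 9, the 3 leading genes of each fit that rose in both sections, genes of the lists that passed, and the 5 most similar over squares; Rgs1, Notch4 and C1qtnf1 among the counts, and the pairs and partners singled out, were chosen after their values were seen.

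Counts were summed per section and bin and tested with edgeR 4.0.16 in R 4.3.3 (quasi-likelihood test after TMM scaling, with a term for section, on genes of at least 50 counts, and Benjamini-Hochberg adjustment at 0.05). SE is the log2 change over the root of F. For a single section the change was taken between TMM-scaled log2 CPM values (prior count 2). DESeq2 1.42.0 was an alternative. Odds ratios are Mantel-Haenszel estimates. The steps were tested on simulated data with log2 changes of 1 and 2. The spread of the simulated counts was a fixed value not estimated from these data, so the real fits may recover fewer genes. The near against far fit recovered 84% and 97.9% of changed genes, and the outside fit 90.8% and 100%. The fit of cells with Kdr recovered 44% and 75%, and that of cells with Mmrn2 3.06% and 37.4%. Of unchanged genes 2.49%, 1.05%, 0% and 0% were called in these fits. A lack of calls in cells with Mmrn2 therefore says little, and the shares recovered do not carry over as they stand to the real fits. In the real outside fit Itgam, at a log2 change of -1.13 (SE 0.22), was not called (edgeR adjusted p = 0.27).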

Additional observations from a re-analysis of the deposited data

How the results depend on the processing

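For 9 genes near against far from Glul-high cells, the count of calls stayed at 0 under DESeq2, no TMM scaling, no minimum count, no replicate block, at least 5 Glul counts, 3 equal groups by distance, covered cells, well-covered tiles, no cells within 15 µm, all decoded transcripts and, chosen after seeing the data, Glul-high cells without any of the 9 genes. It was 1 with at least 2 Glul counts, and the cause was not tested. Signs changed in 23 of 107 estimates, none of them called. Lyve1 became 0.076 under DESeq2, 0.23 with all decoded transcripts, 0.67 with 2 Glul counts, 0.0044 with no minimum count, 0.071 with no replicate block, 0.93 with 3 equal groups and 0.13 without cells within 15 µm. Mrc1 became 0.20 with all decoded transcripts, 0.37 with 2 Glul counts, 8.6e-05 with no replicate block and 0.51 with 3 equal groups. Ushbp1 became 0.077 with all decoded transcripts, 0.014 with 2 and 0.16 with 5 Glul counts, 0.021 in covered cells and 0.10 with landmarks without the genes. With 5 Glul counts Kdr became -0.045, Tek -0.40, Oit3 -0.021 and Clec14a -0.17. Mmrn2 became -0.19 with 2 Glul counts, and Oit3 -0.050 and Clec14a -0.021 with landmarks without the genes.

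Outside against inside, the count stayed at 0 and none of 45 estimates changed sign. Of 72 ordered pairs in cells, 44 were called; the count was 20 with at least 2 counts of the gene, 5 with no replicate block, 71 without TMM and 72 with classes of total counts, whose sums within a section are not separate samples. It lay between 43 and 60 under the 5 others, and all 72 estimates stayed positive in each setting. The genes higher in cells with at least 3 of the 9 numbered 17, and 9 under DESeq2, 66 without TMM, 46 with no minimum count and 7 with no replicate block. The causes were not tested. The summed level was 126 per 10000 over both sections, 163 without replicate 2 and 89.4 without replicate 1. Low counts per cell and 2 sections limit all of these.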
